A study of Caenorhabditis elegans with 2 samples.

Results

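The authors' optimal set of NHR-6 binding sites, derived from both replicates, held 1292 peaks on autosomes and 370 on X. Of these, 266 lay on an autosome with the summit in the promoter window of 2 or more protein-coding genes. The window of a gene began 1000 bp before an annotated transcript 5′ end and reached 200 bp beyond it. These shared-promoter sites made up 20.6% of the autosomal peaks (95% exact binomial interval 18.4 to 22.9%) and 35.1% of the 757 autosomal peaks in any promoter window. The other 491 promoter sites lay in the window of a single gene, and 535 autosomal sites lay in none. A further 15 shared sites on the X chromosome were left out.

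NHR-6 was mapped by ChIP-seq, the sequencing of DNA that is precipitated with a protein, in whole L2 larvae, the second larval stage, of Caenorhabditis elegans. The strain, OP90, has the genotype unc-119(ed3) III; wgIs90, in which wgIs90 is the integrated transgene for eGFP-tagged NHR-6 and ed3 is a mutation of unc-119. Both biological replicates carried this genotype, were of pooled male and female animals and received no treatment that the labels name, so they formed 1 group. The cells that express the transgene and its copy number are not given by the labels, and whole animals mix all tissues. Neither an input nor an untagged strain was analysed here, so what any tagged protein would give at these promoters was not tested. Nothing was measured of how binding bears on the genes.

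NHR-6 is the worm's NR4A receptor, a nuclear receptor that is needed for development of the spermatheca, the sperm store of the gonad. In mammals NR4A proteins bind DNA as single molecules at an extended element, AAAGGTCA. Neighbouring genes that point away from each other (divergent genes) can share the stretch between their 5′ ends as a promoter, and in worms an annotated 5′ end may be the place where a splice leader was joined, downstream of the true start.

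The DNA at the summits of strong divergent sites is shown first, because some of these sequences hold short sequences common at shared sites. None holds the NR4A element. That element is in 0.266% of all autosomal windows of this length, so its absence from 6 windows carries little information. The windows are the summit and 50 bases on both sides, on the plus strand of ce11 (sequence of RefSeq's WBcel235). They come from 6 divergent sites of high signal whose window overlapped no annotated exon. Sites of 1 autosome were left out, so these are not the 6 highest. Capitals mark CGCTCCAC, 1 of the 8-mers found most often at shared sites, and a GA repeat, GAGAGAG.
Y17G9B.5 and rpl-20, chrIV:4750015-4750115, plus strand: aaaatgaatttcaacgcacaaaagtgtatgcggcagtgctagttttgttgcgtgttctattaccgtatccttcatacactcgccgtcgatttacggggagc
rpl-15 and K11H12.8, chrIV:654877-654977, plus strand: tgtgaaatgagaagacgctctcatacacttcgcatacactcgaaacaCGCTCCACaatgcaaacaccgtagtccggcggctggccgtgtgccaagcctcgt
tasp-1 and K01G5.10, chrIII:10759203-10759303, plus strand: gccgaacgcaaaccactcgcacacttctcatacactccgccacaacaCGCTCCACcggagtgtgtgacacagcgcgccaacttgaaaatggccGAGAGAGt
iff-2 and F54C9.14, chrII:8561378-8561478, plus strand: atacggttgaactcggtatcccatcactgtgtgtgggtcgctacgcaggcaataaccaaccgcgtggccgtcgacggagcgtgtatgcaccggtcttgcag
ska-3 and rps-12, chrIII:5679072-5679172, plus strand: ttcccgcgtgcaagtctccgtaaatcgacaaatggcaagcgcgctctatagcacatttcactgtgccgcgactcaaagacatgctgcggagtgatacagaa
mig-5 and cct-1, chrII:8185166-8185266, plus strand: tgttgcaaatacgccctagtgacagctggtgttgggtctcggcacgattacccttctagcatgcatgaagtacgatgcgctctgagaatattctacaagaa

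Of these 6 windows, those of rpl-15 and tasp-1 held CGCTCCAC. The most frequent 8-mer of the shared sites overlaps it by 7 letters. This 8-mer, GCGCTCCA, stood on either strand in the summit window of 25 of the 266 sites (9.40%). Of these, 8 lay on the autosome left out above. Among the others, 15 are shown because they carry the commonest sequence outside annotated exons. Each is given on the strand that reads GCGCTCCA, in capitals, with 15 bases on both sides.
rpl-12 and lin-54, chrIV:13240700-13240737, minus strand: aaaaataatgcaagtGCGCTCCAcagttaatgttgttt
Y71H2AM.20, cox-6B and nduc-2, chrIII:2785999-2786036, plus strand: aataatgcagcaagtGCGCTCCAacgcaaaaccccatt
Y48B6A.1 and rpl-43, chrII:14154526-14154563, plus strand: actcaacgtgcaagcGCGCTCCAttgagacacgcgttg
rps-22 and polh-1, chrIII:1950387-1950424, plus strand: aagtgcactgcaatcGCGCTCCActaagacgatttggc
efl-1 and fbxa-90, chrV:16965856-16965893, minus strand: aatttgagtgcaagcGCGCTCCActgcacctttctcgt
Y62E10A.23, mdt-9, Y62E10A.20 and lsm-3, chrIV:13386268-13386305, plus strand: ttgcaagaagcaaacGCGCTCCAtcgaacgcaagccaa
Y49F6B.2 and col-71, chrII:3502829-3502866, plus strand: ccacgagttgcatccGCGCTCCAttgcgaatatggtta
pbs-1 and K08D12.3, chrIV:1709911-1709948, plus strand: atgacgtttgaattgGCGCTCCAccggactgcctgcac
F19F10.11 and C50E3.5, chrV:7587809-7587846, minus strand: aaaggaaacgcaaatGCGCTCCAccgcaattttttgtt
hrpf-2 and bli-6, chrIV:6376693-6376730, minus strand: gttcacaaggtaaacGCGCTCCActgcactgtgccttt
prcc-1 and C39E9.12, chrIV:13093845-13093882, plus strand: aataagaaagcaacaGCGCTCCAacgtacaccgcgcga
tag-281 and tag-280, chrII:12459648-12459685, minus strand: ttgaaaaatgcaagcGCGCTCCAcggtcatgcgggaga
spot-1 and B0361.11, chrIII:7277399-7277436, plus strand: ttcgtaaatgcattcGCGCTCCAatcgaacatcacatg
vps-2 and tiar-2, chrII:12768399-12768436, plus strand: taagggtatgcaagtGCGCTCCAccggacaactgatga
Y48A6B.3 and fipr-17, chrIII:11007898-11007935, plus strand: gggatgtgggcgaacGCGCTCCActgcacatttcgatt

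At the 25 shared sites the element came with a pattern in its flanks that the search had not used. The flanks at other places that hold GCGCTCCA were not counted, so the pattern cannot be called particular to shared sites. Counting the first G of the element as position 1 and the base before it as -1, position -6 was G in 25 of 25 sites, -5 was C in 22, -4 was A in 24 and -3 was A in 20. Position 11 was G in 22 of 25. In the sequences above this is read as gcaa, 2 further bases, GCGCTCCA, 2 further bases and g, as at rpl-12. Of the 25 sites 23 were divergent, much as among all shared sites (91.4%), and the element lay a median of 20 bp from the summit.

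Shared-promoter sites carried higher signal than sites at single promoters. The authors' signal value, of unknown scale and used only to rank peaks within a list, had a median of 89.8 at shared sites (quartiles 66.3 and 134.2, range 52.8 to 726.4). At single-promoter sites the median was 77.0 (quartiles 61.4 and 106.6, highest 912.7), and at autosomal sites in no promoter window it was 72.5. The upper 50% of the whole set by signal held 169 shared sites (63.5%) and 245 single-promoter sites (49.9%). This difference passed the threshold of 0.05 (odds ratio 1.75, two-sided Fisher's exact test, adjusted p = 0.000572 over 7 site shares). The −log10 q-values of the authors ran from 2.82 to 3.40 in the shared sites, and 220 of them (82.7%) stood at the highest value that the list contains, so they rank few sites.

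**Figure D1:**
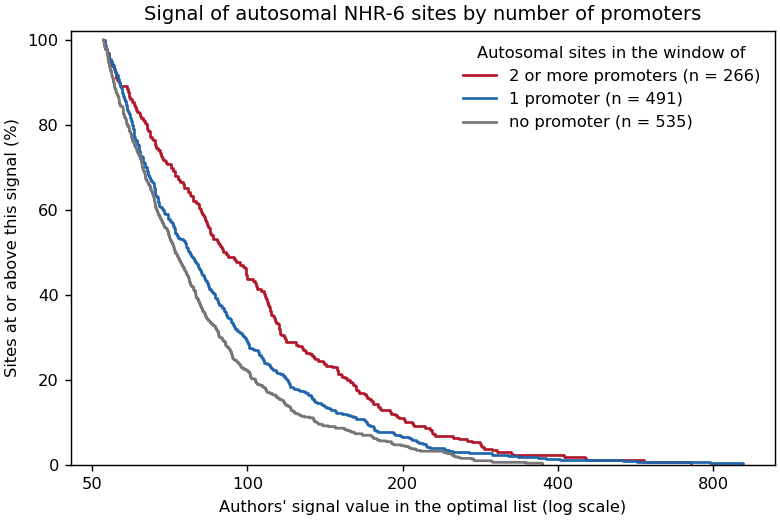
Share of autosomal sites (vertical axis, percent) at or above each signal value of the authors' optimal list (horizontal axis, log scale), for sites in 2 or more promoter windows, in 1 and in none. The curve of the shared sites runs above the others from about the lower quartile up to the highest few sites, where single-promoter sites reach 912.7 and shared sites 726.4, with medians of 89.8, 77.0 and 72.5.

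Shared sites ranked higher by median in both replicates. At the sites of the pooled set, the ranks of replicate 2 separated the classes more than those of replicate 1. Matched within 100 bp of the pooled summit, shared sites had a median rank of 688 in replicate 1 and 500 in replicate 2, against 871.5 and 810 for single-promoter sites. Each replicate's highest peaks were taken in the number of the optimal set. Those of replicate 1 included 226 shared sites (85.0%) and 417 single-promoter sites (84.9%), a difference that did not pass (odds ratio 1.00, exact adjusted p = 1.0). Those of replicate 2 included 214 shared (80.5%) and 301 single-promoter sites (61.3%), and this difference passed (odds ratio 2.60, exact adjusted p = 2.82e-07). The replicates were alike when the sites themselves were drawn from the highest peaks of a single replicate. The share of shared sites in the upper part by signal then exceeded that of single-promoter sites by 14.05 percentage points without replicate 2. Without replicate 1 it did so by 14.07 points. The relaxed lists, which hold 30000 peaks a replicate and include weak candidates, had both replicates' summits at 256 shared sites (96.2%) and 417 single-promoter sites (84.9%; odds ratio 4.54, exact adjusted p = 2.53e-06). That contrast is carried by replicate 2, whose relaxed list lacked 9 shared and 69 single-promoter sites, while that of replicate 1 lacked 1 and 7.

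The same ranks were also counted by site. Of the shared sites 182 were among the highest of both replicates (68.4%, against 50.5% of single-promoter sites; odds ratio 2.12, exact adjusted p = 4.31e-06), 44 only of replicate 1, 32 only of replicate 2 and 8 of neither. Among sites high in a single replicate, replicate 2 was that replicate at 32 of 76 shared sites (42.1%) and at 53 of 222 single-promoter sites (23.9%; odds ratio 2.32, two-sided Fisher's exact test, p = 0.00320). This comparison was chosen after the values were seen, rests on the same ranks as the shares above and adds no separate support. Base composition moved with the replicate. The 32 shared sites high in replicate 2 alone had a median of 37.6% G and C in the summit window, the 44 high in replicate 1 alone had 46.5%, and the 182 high in both had 46.04%. At single-promoter sites the corresponding medians were 39.6%, 44.6% and 45.5%, and the part of base composition in the replicate difference was not tested.

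**Figure D2:**
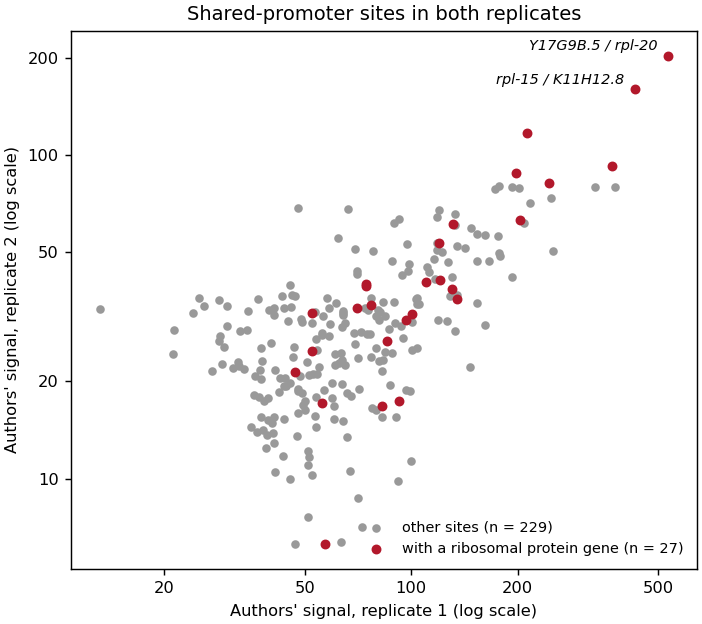
Authors' signal of the 256 shared-promoter sites matched in both relaxed lists, replicate 1 (horizontal) against replicate 2 (vertical), both on log axes, with the 27 sites of cytosolic ribosomal protein genes in red. The sites of rpl-20 and rpl-15 are at the top in both replicates, and low signals spread widely around the trend.

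The strongest shared site lay between rpl-20, which encodes a protein of the large ribosomal subunit, and Y17G9B.5, whose product RefSeq names after a signalling intermediate of the Toll pathway (chrIV:4749940-4750198). Its pooled signal was 726.4, with 533.2 and 202.6 in replicates 1 and 2, and it ranked the third in all 3 lists. The summit was 175 bp from the 5′ end of Y17G9B.5 and 287 bp from that of rpl-20, upstream of both. The site of rpl-15, another large-subunit gene, and K11H12.8 (chrIV:654805-655044) had 587.4, 430.0 and 159.6. Its rank was 6 among the pooled peaks, and 7 and 8 in the replicates.

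Genes of protein synthesis took much of the top of the order. The site between rps-1, of the small ribosomal subunit, and the translational repressor gene ifet-1 (chrIII:4475557-4475768) had a pooled signal of 454.1, with 370.1 in replicate 1 and 92.4 in replicate 2. The site of iff-2, the gene of translation factor eIF5A, and F54C9.14 (chrII:8561337-8561526) had 411.0, 330.4 and 79.5. Further down, rps-12 shared a site with the kinetochore gene ska-3 (326.7, 244.9 and 81.9), rps-20 with ekl-4, whose product resembles the DNA methyltransferase-associated protein DMAP1 (304.9, 212.9 and 116.8), and rps-19 with hsr-9 (284.6, 198.1 and 88.3). All 3 were within the 60 highest of each replicate. The elongation factor gene eef-1A.1 shared its site with rfc-4, a subunit gene of the clamp loader of DNA replication (287.9, 217.3 and 71.1), eef-2 with the replication checkpoint gene clsp-1 (257.6, 176.5 and 80.2), and eef-1G with the replication factor gene ctf-4 (228.1, 176.3 and 56.3).

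Other sites among the 20 highest joined genes of unlike function. The site between tasp-1, a gene for a threonine aspartase, and K01G5.10 (chrIII:10759134-10759369) had a pooled signal of 450.6, with 376.8 in replicate 1 and 79.7 in replicate 2. Chaperone genes were reached at mig-5, a dishevelled gene of Wnt signalling, with the chaperonin gene cct-1 (284.3, 192.5 and 79.9), and at rpn-3, a proteasome gene, with hsp-110 (282.9, 201.8 and 79.3). The site of icd-1, a gene of the nascent polypeptide-associated complex, and the membrane remodelling gene vps-32.1 had 325.1, 249.1 and 73.7, and that of tag-340 and the microRNA cofactor gene nhl-2 had 297.6, 252.3 and 50.4. That of rpl-12 and lin-54, a DNA-binding subunit gene of the DREAM repressor complex, had 266.8, 202.9 and 63.1. Those of ndk-1, a nucleoside diphosphate kinase gene, with F25H2.6 (230.7 pooled) and of cux-7, C07H6.2 and the DNA ligase gene lig-4 (250.5) followed.

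In 19 of the 20 highest sites both replicates had a matching summit. The exception was the site of set-16, a histone methyltransferase gene, and drr-2 (chrIII:13643592-13643935), with a pooled signal of 228.6, a signal of 190.7 at rank 64 in replicate 1, and no summit of replicate 2 within 100 bp. The nearest summit of replicate 2 was 105 bp away and ranked 228. The 3 lowest shared sites were those of snr-6 and Y49E10.16, of Y48A6B.3 and fipr-17 (52.8 in each case) and of W04B5.3 and W04B5.5 (52.8 pooled, 41.3 in replicate 1, none in replicate 2 within 100 bp). Of all shared sites 9 had no summit of replicate 2 within 100 bp, and in 6 of these the nearest was within 200 bp.

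The window rule itself places the summits near 5′ ends, so their distances are a description. The nearest 5′ end was a median of 144.5 bp away (quartiles 69.25 and 222.75) and that of the next gene 325.5 bp. Intergenic sequence held 227 of the summits (85.3%, against 71.7% of single-promoter sites), exons outside coding sequence held 20, introns 16 and coding exons 3. Of the 266 sites, 247 lay in the windows of 2 genes, 18 in those of 3, and 1 in those of 4. The genes at the summit were divergent at 243 sites (91.4%) and pointed the same way at 23. At 226 of the 243 divergent sites (93.0%) the summit was upstream of every 5′ end.

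In the 209 divergent 2-gene sites with the summit between both 5′ ends, the gap measured a median of 470 bp (quartiles 325 and 768). The summit sat a median of 33.6% of the gap from the nearer 5′ end, and the fullest part of the gap was its centre, as the histogram of summit positions shows. At the site of mig-5 and cct-1 the ends were 193 and 227 bp away, and at that of aka-1 and ubc-6 they were 323 and 327 bp away. At the site of tasp-1 and K01G5.10 the distances were 54 and 731 bp.

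Divergent gene pairs held a shared summit more often than same-strand pairs, but they also share longer windows. Of 2967 autosomal divergent pairs with overlapping windows, 259 held a summit in the overlap (8.73%), and of 1039 same-strand pairs 44 did (4.23%; odds ratio 2.16, two-sided Fisher's exact test, p = 7.96e-07). The overlap measured a median of 809 bp in divergent and 329 bp in same-strand pairs. Per 100 kb of overlap, 11.3 divergent and 10.2 same-strand pairs held a summit. Among pairs with an overlap of at least 500 bp the shares were 10.6 and 10.9%, a difference of -0.37 percentage points that did not pass (exact p = 0.849). Pairs were sorted by their closest 5′ ends and sites by the ends nearest the summit, and a site in more than 2 windows counts in several pairs.

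The distance between divergent 5′ ends went with the share of pairs that held a summit. The share was 9.23% at 0 to 249 bp (36 of 390 pairs), 19.6% at 250 to 499 bp (107 of 547) and 10.5% at 500 to 749 bp (51 of 488). It fell to 0.729% at 1500 to 2000 bp (4 of 549), where the overlap of the windows was a median of 244 bp. The class of 250 to 499 bp was also the highest per length of overlap. Per 100 kb of overlap, 12.7 pairs held a summit in the closest class, 22.8 at 250 to 499 bp, 9.77 at 500 to 749 bp and 2.98 in the widest class. These shares by distance are a description and were not tested.

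**Figure D3:**
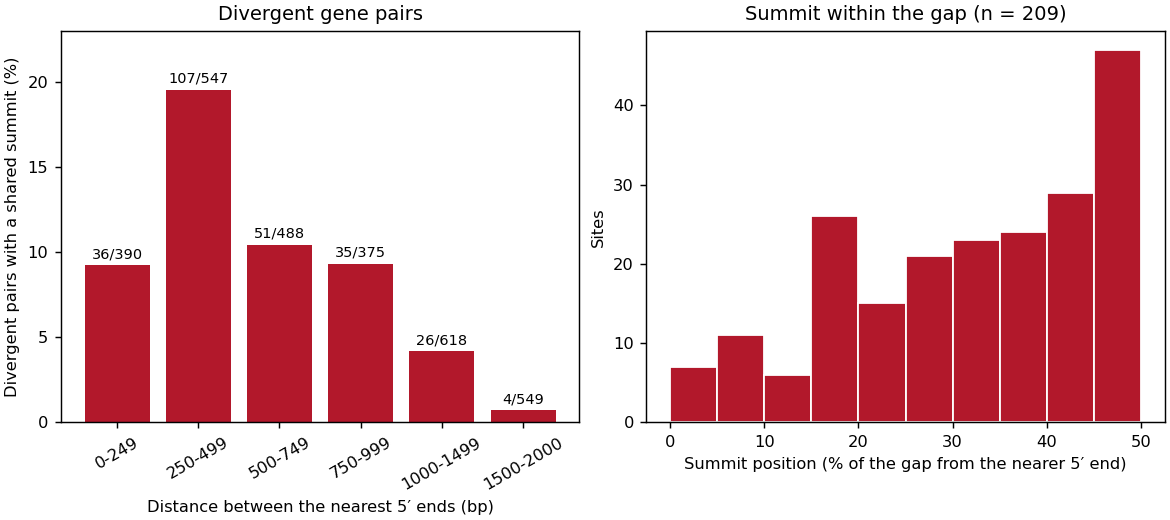
Left, share of autosomal divergent gene pairs with a summit in both windows (percent) by the distance between their nearest 5′ ends (bp), with counts above the bars. Right, number of 2-gene divergent sites by the summit's position in the gap, in percent from the nearer 5′ end, so 50 is the centre. The share is highest, 19.6%, at 250 to 499 bp, and the count is highest at the centre.

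The 23 same-strand sites ran from 53.9 to 273.0 in signal. The highest joined sec-61.G, a gene of the protein translocation channel, and F32D8.13, named a phosphomevalonate kinase by RefSeq (chrV:10897284-10897448), with a pooled signal of 273.0, and 208.7 and 61.5 in replicates 1 and 2. Its summit was 219 bp upstream of sec-61.G and 819 bp upstream of F32D8.13. Next came ddp-1 with ttc-7 (190.2, 120.0 and 67.8) and the ribosomal protein gene rpl-23 with swp-1 (178.8, 131.0 and 61.4). In all 23 the summit was upstream of both genes.

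More than 2 windows held the summit at 19 sites, with signals from 55.5 to 250.5. The site in 4 windows (Y62E10A.23, mdt-9, Y62E10A.20 and the splicing gene lsm-3, chrIV:13386095-13386438) had a pooled signal of 77.2, with 59.6 in replicate 1 and 19.8 in replicate 2, and is shown above with its GCGCTCCA element. There RefSeq gives the name Mediator complex subunit 9 to the product of Y62E10A.23 and not to that of mdt-9. The 18 sites in 3 windows ran from 55.5 to 250.5. Beside cux-7 they included rab-18, a vesicle traffic gene, with kbp-4 and the polarity gene par-2 (180.7, 117.9 and 64.3), and the mitochondrial carrier gene ant-1.1 with T27E9.2 and abcf-2 (118.6, 99.4 and 18.7).

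The window rule cut through a continuum at its outer edge. The shared sites nearest to the limit had the far gene's 5′ end 992 bp away (T28F4.4 with pbrm-1, signal 59.0, and Y62F5A.12 with mdt-8, 53.9) or 987 bp away (tag-281 with tag-280, 56.5). Just outside, sites counted as single-promoter had a further 5′ end at 1006 bp (F13G3.10 and mif-3, 110.5), 1012 bp (R107.5 and cls-2, 107.6) and 1013 bp (usp-39 and nep-18, 65.5). In all, 70 single-promoter sites had such an end within 500 bp beyond the limit.

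The sites reached 548 genes, 3.18% of the 17242 autosomal protein-coding genes, while 5.82% had a summit of any optimal peak in the window. The 30 gene lists used to describe them were drawn up by symbol with earlier results of these data known, so the counts are descriptions without a test, and nothing is called particular to a list. A gene can have a shared site only where its window overlaps another gene's, which held for 6704 genes. Of these 8.17% had a shared site, and for each list the genes with such a partner window, here called partnered, are counted too. Of all genes with a summit of any optimal peak in the window 54.6% had a shared site. Of the 653 partnered genes among them the share was 83.9%. A single-promoter site alone was found at 2.64% of all genes. At least 1 listed gene was at 149 of the sites (56.0%).

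Protein synthesis lists had 51 of 251 genes at a shared site, 29.8% of the 171 with a partner window. Cytosolic ribosomal protein genes led with 29 of 79 (47.5% of 61 with a partner). A further 14 had a summit only in a window of their own (17.7%, against 2.64% of all genes). Of the 33 partnered ones with any summit 87.9% had a shared site, beside 83.9% of all such genes. The shared sites of ribosomal protein genes ran from 64.7 (nfx-1 with rps-13, at rank 22664 in replicate 2) to 726.4. Both subunits were present, and 2 sites lay in the windows of a pair of ribosomal protein genes. These were rps-14 with rpl-36 and ndab-2 (170.6 pooled, 130.5 in replicate 1 and 38.4 in replicate 2) and rpl-24.1 with rps-10 (149.9, 109.8 and 40.4). Translation factor genes had 11 of 43 (36.7% of 30 with a partner) and ribosome biogenesis genes 6 of 26 (6 of 20), with tsr-2 and set-26 at 118.7, rbd-1 at 113.2 and lpd-7, at the site of rpl-9, at 109.7. Mitochondrial ribosomal protein genes had 4 of 71, led by mrps-7 (164.9), and aminoacyl-tRNA synthetase genes had 1 of 32, ears-2 (135.5). These last lists were at 9.52 and 5.56% of the genes with a partner, near the share of all genes.

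Energy metabolism followed. Respiratory chain genes had 15 of 66 (29.4% of 51 with a partner). A single site (chrIII:2785987-2786121) lay in the windows of cox-6B, a cytochrome c oxidase gene, nduc-2, of complex I, and Y71H2AM.20, with a pooled signal of 210.5, and 147.3 and 59.3 in replicates 1 and 2. The ATP synthase genes atp-1 (196.7) and atp-2 (84.4), the complex I gene ndua-8 (128.2) and cox-14 (85.0) each had a site. Citric acid cycle genes had 2 of 18 (2 of 9 partnered), aco-2 (62.02, at the site of the elongation factor gene eef-1B.1) and mdh-1 (64.6). The site of aco-2 had no summit of replicate 2 within 100 bp. Mitochondrial import genes had timm-23 alone (58.9, 1 of 8 partnered).

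The CCT chaperonin, a ring that folds actin and tubulin, had 4 of 8 genes at a shared site and none at a site of its own: cct-1 (284.3), cct-8 (221.1), cct-7 (77.6) and cct-6 (53.8). All 8 genes were partnered, and of all partnered genes with a summit 83.9% had a shared site. At the cct-7 site replicate 2 had no summit within 100 bp, and its nearest was 660 bp away at rank 6611. At all 4 cct sites the partner's 5′ end was nearer to the summit than that of the cct gene. Heat shock protein and DnaJ genes had 7 of 48 (28.0% of 25 with a partner), among them hsp-110 (282.9), the mitochondrial chaperonin gene hsp-60 (188.6), dnj-13 (159.6) and dnj-22 (99.6). Proteasome genes had 4 of 33 (14.8% of 27 partnered), rpn-3 (282.9), rpt-2 (133.2), pas-4 (108.1) and pbs-1 (72.3). Ubiquitin system genes had 2 of 74 (4.88% of 41 partnered, below the share of all genes), ubq-2 (75.3) and ubc-6. A further 12 had a summit only at a window of their own. Of the 5 partnered ubiquitin system genes with any summit 40.0% had a shared site.

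RNA production was represented at many sites of middle signal. RNA polymerase and general factor genes had 13 of 78 (30.2% of 43 with a partner), against 2 with a site of their own. Of the 14 partnered ones with any summit 92.9% had a shared site, beside 83.9% of all such genes. Those at shared sites included rpb-11 (174.9), taf-4 (110.7), the Mediator gene mdt-19 (110.2) and rpb-3, whose site was also that of the proteasome gene pas-4 (108.1). Splicing genes had 11 of 66 (21.6% of 51 partnered). The SR protein genes rsp-1 and rsp-2 shared a site (103.2 pooled, 72.2 in replicate 1 and 28.4 in replicate 2), as did rsp-5 and the Sm protein gene snr-3 (66.1, 47.8 and 15.98), and prp-19 (103.8) and prp-40 (99.8) each had a shared site with other genes. Nuclear pore and transport genes had 5 of 46 (16.1% of 31 partnered), led by npp-3 (115.1), imb-1 (114.9) and ran-5 (109.0), and mRNA decay genes had 3 of 41 (11.1% of 27 partnered), at ifet-1, nhl-2 and alg-5.

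Chromatin regulator genes had 14 of 76 at a shared site, which was 42.4% of the 33 with a partner window. Beside lin-54 and set-16 they included ash-2, of the histone H3 methylation complex (195.3), and lin-53, which encodes a histone-binding protein (169.5). Histone genes had 7 of 76 (10.3% of 68 with a partner), in 3 sites between paired genes, his-67 with his-68 (140.6), his-31 with his-32 (116.4) and his-3 with his-4 (78.5), and at the H2A variant gene htz-1 (179.5). Histone genes are near-identical copies, and how the authors treated reads that match several places is unknown. Cell cycle and replication genes had 11 of 93 (11 of 55 partnered), against 2 with a site of their own. Of the 12 partnered ones with any summit 91.7% had a shared site, beside 83.9% of all such genes. Those at shared sites included cdc-14 (146.2), cdc-6 (134.6) and polh-1 (115.9). Another was the pair of orc-5, of the origin recognition complex, and the cyclin gene cyb-1 (99.7 pooled and 61.2 in replicate 1). Vesicle traffic genes had 13 of 115 (18.8% of 69 partnered), among them syx-5 (162.4), and vacuolar ATPase genes 2 of 18 (2 of 10 partnered), vha-8 (149.4) and vha-1 (68.5).

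The 4 lists of transcription factor families had 6 of 370 genes at a shared site and 19 at a single-promoter site. Of the 74 with a partner window 8.11% had a shared site, close to the 8.17% of all genes. The members were zip-4 (65.7), aha-1, a partner of PAS-domain factors (96.9), ceh-38 (201.4) and the nuclear receptor genes nhr-68 (98.9), nhr-47 (81.3) and nhr-142 (58.7). In replicate 2 the sites of these receptor genes ranked 7743, 6340 and 3053, outside its highest peaks. No shared site lay at nhr-6 itself or at unc-119.

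Tissue-specific families had 10 of 1885 genes at a shared site, 1.87% of the 536 with a partner window. Chemoreceptor genes had 2 of 1283 (0.615% of 325 partnered), sri-5 (83.4, with rsr-1) and srh-2 (55.5, with icl-1), and F-box genes 3 of 309 (2.61% of 115 partnered), fbxb-85 (158.3), fbxc-54 (149.0) and fbxa-90 (112.5, with the E2F gene efl-1). Collagen genes had 3 of 146 (5.66% of 53 partnered), col-38 (99.5, at the site of rpl-5), col-71 (73.6) and bli-6 (61.9). Major sperm protein genes had 0 of 43. Neuronal genes had 2, which was 1.92% of the list, beside 3.18% of all genes. Of the 19 partnered ones it was 10.5%, beside 8.17% of all partnered genes. A count of 2 cannot place the list above or below these shares. The neuronal genes were egl-30, a G protein gene (175.5), and ric-19 (65.4). The partner at several of these sites was a gene of broad function, as at col-38, and a summit does not say which of its genes it serves. Over the 110 sites with 2 genes of which 1 was listed, the listed gene was the nearer at 56 (50.9%).

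**Figure D4:**
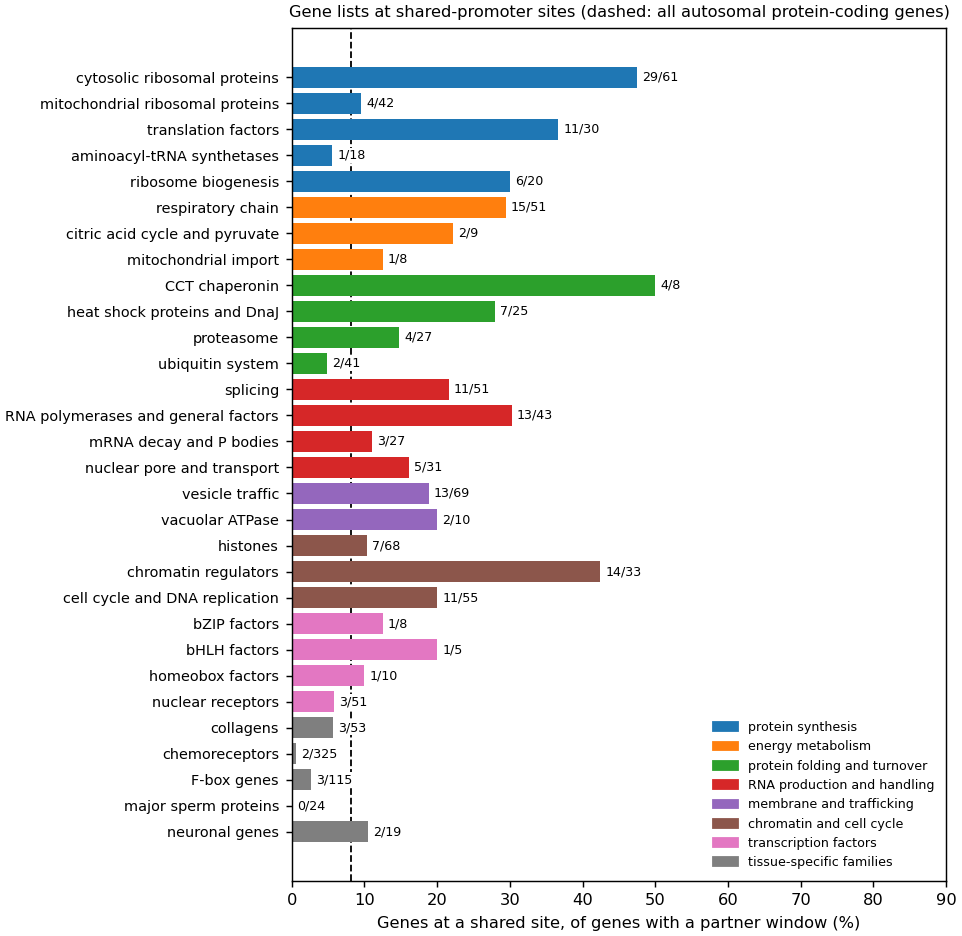
Share of each list's genes at a shared-promoter site (percent), out of the list's genes whose window overlaps another gene's, with counts beside the bars, coloured by group. The dashed line is the share of all such autosomal protein-coding genes, 8.17%. Chaperonin (4 of 8), ribosomal protein (29 of 61) and chromatin regulator genes (14 of 33) have the longest bars.

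Small non-coding RNA genes were near shared sites as often as near single-promoter sites. A 5′ end of a tRNA, rRNA, snRNA, snoRNA or miRNA gene had the summit in its window at 15 shared (5.64%) and 30 single-promoter sites (6.11%; exact adjusted p = 1.0). Of the 15, 12 were near snoRNA genes, and many of these were at ribosomal protein or translation factor genes such as rpl-15, iff-2, rps-12 and rpl-7A. The miRNA genes mir-354 and mir-5549 were at the sites of rps-20 and eef-1A.1. No tRNA or rRNA gene was among them.

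Across chromosomes, shared sites numbered 61 on I, 46 on II, 68 on III, 53 on IV and 38 on V, and single-promoter sites from 78 on V to 112 on I and II. In the central 50% of each chromosome lay 59.8% of shared and 66.6% of single-promoter sites, a difference that missed the threshold (odds ratio 0.745, exact adjusted p = 0.0950). The difference of -6.82 percentage points shrank to -3.25 without replicate 2 and to -0.35 with windows from 2000 bp. Only 4 genes had more than 1 shared site. The pair of pdtf-1 and T26A8.4 had sites of 155.8 and 71.8, and that of aka-1 and ubc-6 had 83.7 and 59.0, whose summits are 209 bp apart. In replicate 2 the lower site of the former pair had a signal of 13.4. In the latter pair the higher site had 8.74 there, and the lower one no summit within 100 bp.

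No shared site held the NR4A element. AAAGGTCA, searched on both strands of the summit windows, was in 0 of the shared sites, which allows a share of up to 1.13%, in 3 single-promoter sites (0.611%) and in 0.266% of all non-overlapping windows of that length on the autosomes. The difference between the site classes did not pass (exact adjusted p = 0.881). Its core, AGGTCA, was in 2 shared sites (0.752%) and 18 single-promoter sites (3.67%), beside 2.37% of all windows, and the E-box CACGTG was in 8 (3.01%) and 36 (7.33%), beside 1.74%. Unadjusted, these differences had exact p-values of 0.0166 and 0.0146, and after adjustment over 11 motifs both were 0.0912. Without replicate 1 they shrank from -2.91 to -0.69 and from -4.32 to -0.89 percentage points. The GA repeat GAGAGAG was in 9.02% of shared and 14.5% of single-promoter sites (exact adjusted p = 0.140) and in 25.6% of autosomal sites outside promoter windows. None of the 11 motifs passed.

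The other 7 motifs did not pass either. The TATA box TATAAA was in 5.26% of shared and 4.48% of single-promoter sites, but in 13.1% of windows at the midpoint of the 2708 divergent pairs without a shared summit. The splice acceptor TTTTCAG was in 3.38, 4.28 and 10.3%. Base composition differed too, with a median of 45.5% G and C at shared sites, 44.6% at single-promoter sites and 33.7% at those midpoints. The GC box GGGCGG (4.51 and 4.28%), the E2F element TTTCGCGC (2.26 and 1.63%), CTTATC of GATA factors (2.26 and 3.46%), TGACGTCA (0.752 and 2.04%) and TGACTCA (0.376 and 0.204%), both of bZIP factors, completed the set.

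The 8-mers found most often at shared sites were of several kinds. They were chosen by their counts in these sites, so their shares there are a description, and the test was made in other peaks. These were the pooled peaks below the optimal set, down to rank 5000 and more than 300 bp from any optimal summit, of which 247 lay in 2 or more promoter windows and 900 in 1. GCGCTCCA, in 9.40% of shared sites, was in 8 single-promoter sites (1.63%), 0.374% of sites outside promoters, 0.923% of divergent midpoints and 0.359% of all autosomal windows. In the weaker peaks it was in 10 of 247 (4.05%) against 11 of 900 (1.22%), a difference that passed (odds ratio 3.41, two-sided Fisher's exact test, adjusted p = 0.0165 over 10 8-mers). CGCTCCAC, which overlaps it, passed likewise (3.24 against 0.667%, exact adjusted p = 0.0124). AAGTGCGC, whose end GCGC overlaps its beginning, did not pass (3.24 against 1.33%, exact adjusted p = 0.0770).

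An unrelated 8-mer, CTGGCGCA, was in 20 shared sites (7.52%), 19 single-promoter sites (3.87%) and 1 site outside promoters (0.187%), beside 0.0948% of all autosomal windows. Its shares in the weaker peaks were 4.05 and 0.556% (odds ratio 7.55, exact adjusted p = 0.000977). GCGCCAGC, whose reverse complement GCTGGCGC overlaps it, was in 3.64 and 1.11% (exact adjusted p = 0.0207), and AAAATAAA in 11.7 and 4.67% (exact adjusted p = 0.000977), although in the optimal set AAAATAAA was no more frequent at shared sites (6.77%) than at divergent midpoints (8.42%). By contrast AGACGCAG, in 24 shared sites (9.02%), was in 12.8% of single-promoter sites and 12.3% of sites outside promoters. In the weaker peaks it was in 5.67 and 7.89%, which did not pass (exact adjusted p = 0.342). GACGCAGA (2.83 and 6.33%, exact adjusted p = 0.0674), GAGACGCA (5.26 and 6.67%, 0.466) and ATTTTTTG (4.45 and 3.22%, 0.369) did not pass there either. Weaker peaks in 2 or more windows had a median of 40.6% G and C and those in 1 window 39.6%.

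**Figure D5:**
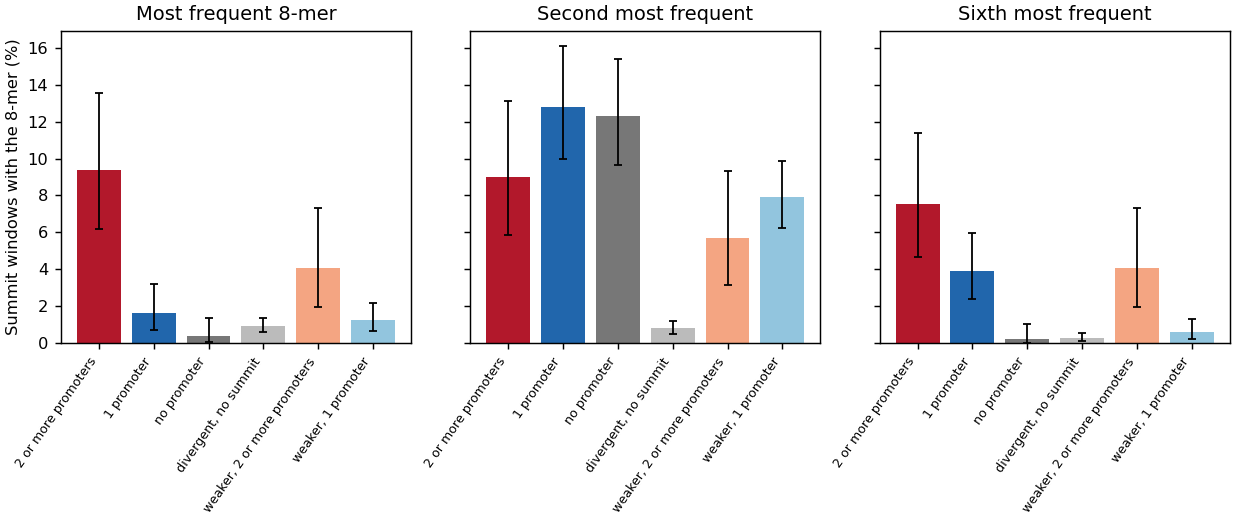
Share of summit windows (percent) that hold each of 3 8-mers of the shared-promoter sites, by class of window: optimal sites in 2 or more, 1 or no promoter windows, midpoints of divergent pairs with no shared summit, and weaker pooled peaks in 2 or more or in 1 window. Error bars are 95% exact binomial intervals (counting error only). The most frequent 8-mer is at 9.40% in shared and 1.63% in single-promoter sites, while the second is at 9.02 and 12.8%.

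Sites with GCGCTCCA spanned the range of signals. Of the 25, 11 were in the upper 50% of the set by signal, beside 63.5% of all shared sites. Among the highest of both replicates were 14 of the 25, beside 68.4% of all shared sites. The highest printed one, at rpl-12 and lin-54, had 266.8, and next came that of cox-6B and nduc-2 with 210.5. Their listed genes were of many groups, with the ribosomal protein genes rpl-12, rps-15 (132.1), rpl-43 (129.8) and rps-22 (115.9), the chaperone genes dnj-13 and dnj-28 (54.5), the proteasome gene pbs-1 and the collagen genes col-71 and bli-6. They were spread over all 5 autosomes, with between 2 and 8 on each.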

How the data were processed

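Peak lists on genome build ce11 were used, with gene models of Ensembl release 115 (WBcel235, the same assembly) and product names from RefSeq. Per the file lists that come with the samples, the authors derived the optimal set from relaxed lists of each replicate and of both together, with the irreproducible discovery rate. The deposited lists give 1 signal value per peak, its −log10 q-value and the summit's offset. The sources used here give no aligner, peak caller, control or threshold. Signal was compared only within a list. Read depth is unknown, so intervals (Clopper-Pearson, 95%) and the limit for a count of 0 (3 counts) cover counting error only.

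A site was shared where the promoter windows of 2 or more protein-coding genes held its summit. Of the shared peaks 233 had the pooled width, with the summit in its middle. Shares were compared with single-promoter sites by two-sided Fisher's exact tests with Benjamini-Hochberg adjustment in each family (7 site shares, 11 motifs, 10 8-mers). The tests count sites as independent, and p-values describe these 2 samples only. Named were the 20 highest and 3 lowest sites, those nearest to the window's limit, those with 2 genes of a list, up to 4 per list, nhr-6 and unc-119. Further sites, such as the highest same-strand ones and those with repeated pairs, were named after their values were seen. The members and lists were chosen with earlier results of these data known. Sequences were printed only for sites on chromosomes II to V. Procedures were tested on simulated sites. Alternatives were other windows, 5′ ends, matching distances, comparison sites, sequence windows, the upper part of the set, peak centres, each replicate alone and, added after the data were seen, upper and lower signal ranks. Python 3.11.15, pandas 2.3.3, NumPy 2.4.6, SciPy 1.17.1 and matplotlib 3.10.9 were used.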

Additional observations from a re-analysis of the deposited data

How the results depend on the processing

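Of 158 alternative values, 130 kept their direction and their side of the threshold. The number of sites moved to 409 with windows from 2000 bp upstream and to 169 in the upper 50% of the set, which follows from how both are built. With a single replicate's highest peaks it ran from 246 to 287. The higher share of shared sites among the highest peaks of replicate 2 and in the upper 50% held in all 9 alternatives run for each, of which the 2 matching distances cannot move the latter. The near-equal share in replicate 1 (a difference of 0.03 percentage points) turned to -1.74 with windows from 500 bp, -0.41 from 2000 bp, -1.55 with outermost 5′ ends, -0.84 with matching within 200 bp, -0.57 at divergent sites alone, -0.37 in the upper 50% and -9.91 in the lower, and none of these passed. The share in both relaxed lists fell to a difference of 4.35 points in the upper 50% (exact adjusted p = 0.0629), and that among the highest of both replicates to 10.8 in the lower (exact adjusted p = 0.0568). Both have fewer sites. The difference between divergent and same-strand pairs turned to -0.37 points with overlaps of at least 500 bp, and ran from 4.23 to 4.79 with either replicate left out. The GA repeat, which differed by -5.44 points, passed with windows from 2000 bp (-7.96), against all other autosomal sites (-11.3), with 100 bases on both sides of the summit (-10.9) and without replicate 2 (-9.13), but not without replicate 1 (-1.26). Motifs that never passed changed sign. The AP-1 motif went to -0.22 (500 bp), -0.0139 (all other sites), -0.33 (100 bases) and -1.39 to -0.0050 (single replicates), and with windows from 500 bp the GATA motif went to 0.55 and the GC box to -1.04. The TATA box went to -1.08 (25 bases on both sides) and -3.35 to 1.38 (single replicates), and the splice acceptor to 2.47 (100 bases) and -1.22 to 0.17 (single replicates). Small RNA genes, at -0.47, went to -0.18 and 0.12 with single replicates. The cause of these changes was not tested.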
